A study of Homo sapiens with 9 samples.

Results

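The genes described here stood near their resting footprint level after 5 h of T cell receptor stimulation and above it after 12 h. They were picked from ribosome profiling counts in 3 steps. Counts were first scaled to each library's total (CPM, a count's share of its library, scaled to a common total) and averaged over the 3 libraries of each time. Genes then had to reach a mean of at least 10 CPM over the 9 libraries, with a 5 h/resting ratio between 0.8 and the inverse of 0.8. Last, 12 h/resting and 12 h/5 h each had to reach 1.6. The rule kept 145 of 19569 gene identifiers, and 8813 of those identifiers reached 10 CPM. All 9 libraries and all 3 ratios served the choice, so these ratios are described below and not tested. The files list versioned Ensembl identifiers without symbols, and 139 of the 145 identifiers are named here from general knowledge of that public nomenclature. The other 6 keep their identifiers.

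All libraries came from Jurkat clone E6-1, an established human T lymphoblast line derived from a T cell leukaemia and a standard model of T cell receptor signalling. As a transformed clone it divides without stimulation, and Jurkat cells are known to lack the lipid phosphatase SHIP1. The resting group (3 libraries) is labelled as control at 0 h. The other 2 groups (3 libraries each) were stimulated for 5 h or 12 h on plates coated with anti-CD3 at 10 µg/mL, with anti-CD28 added to the medium at 5 µg/mL. The first antibody engages the T cell receptor complex, the second the costimulatory receptor CD28. No library came from unstimulated cells at 5 h or 12 h, so stimulation and time in culture cannot be told apart. Ribosome profiling counts the short mRNA stretches covered by translating ribosomes, so a footprint level carries mRNA amount and translation together and these libraries cannot separate them. In a bulk culture, more cells with a transcript and more of it per cell cannot be told apart either.

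Library totals ran from 4343515 to 18506509 counts, and the smallest was a 12 h library. All 11 T lymphoblast markers checked exceeded 10 CPM, and their summed level was 4755 to 4875 CPM at rest, 5831 to 6051 CPM at 5 h and 5143 to 5252 CPM at 12 h. Of the other cell types, summed B cell markers reached 120.0 CPM at most, nearly all of it CD79A at a mean of 100.4 CPM. Myeloid markers stayed at or under 10.2 CPM and erythroid markers at or under 1.47 CPM. NK cell markers summed to 4.52 to 7.09 CPM at rest, 10.6 to 15.5 CPM at 5 h and 9.67 to 14.4 CPM at 12 h, and epithelial markers to 10.6 to 11.9, 14.2 to 28.0 and 18.0 to 24.2 CPM. Fibroblast markers summed to 8.95 to 20.8 CPM at rest, 25.6 to 38.0 CPM at 5 h and 30.9 to 53.8 CPM at 12 h, and DCN, at a mean of 24.8 CPM, held the largest part. The part of these markers in the results below was not tested. Scaling matters for this gene set. With column totals, the median log2 ratio over the 8813 genes was 0.07 for 5 h/resting, 0.14 for 12 h/resting and 0.04 for 12 h/5 h. With TMM factors, which scale libraries on the bulk of genes, these medians were -0.07, -0.05 and -0.00. A ratio of 1.6 against rest is therefore easier to reach on the first scale. With TMM the same limits kept 93 genes, 70 of them among the 145.

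Stimulated T cells first raise immediate early genes and cytokines, and later build membranes, enlarge and reshape their metabolism for growth. Cholesterol and its isoprenoid precursors are made in the endoplasmic reticulum from acetyl-CoA by a chain of enzymes. Their genes are classically controlled together by SREBP transcription factors, which are released when membrane sterol is low and act on promoters together with NF-Y and Sp1. The genes raised at 12 h held 5 enzymes of that chain, and several other groups: transcription and chromatin factors, kinases and adaptors, secretory pathway and autophagy proteins.

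The promoters of 6 sterol and fatty acid genes of the set are shown first, because these genes have a known shared control and include 3 of the most abundant members. EBP, NSDHL, MVD and FDPS are enzymes of the sterol chain, SCD makes monounsaturated fatty acids, and TMEM97 is the sigma-2 receptor, a membrane protein tied to sterol transport. Each run gives the 250 bases before the annotated start from RefSeq on build GRCh38.p14, 5′ to 3′ on the gene's strand. Capitals mark the NF-Y motif CCAAT and the Sp1 motif GGGCGG, each on either strand. The windows lie at chrX:48521558-48521807, plus strand (EBP), chrX:152830813-152831062, plus strand (NSDHL), chr16:88663092-88663341, minus strand (MVD), chr1:155308616-155308865, plus strand (FDPS), chr10:100346983-100347232, plus strand (SCD) and chr17:28318950-28319199, plus strand (TMEM97).
EBP: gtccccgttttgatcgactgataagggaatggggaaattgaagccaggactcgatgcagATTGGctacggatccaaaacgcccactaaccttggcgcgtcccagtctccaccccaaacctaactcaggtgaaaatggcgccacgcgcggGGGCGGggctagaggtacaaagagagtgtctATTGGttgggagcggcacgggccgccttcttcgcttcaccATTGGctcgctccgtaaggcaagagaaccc
NSDHL: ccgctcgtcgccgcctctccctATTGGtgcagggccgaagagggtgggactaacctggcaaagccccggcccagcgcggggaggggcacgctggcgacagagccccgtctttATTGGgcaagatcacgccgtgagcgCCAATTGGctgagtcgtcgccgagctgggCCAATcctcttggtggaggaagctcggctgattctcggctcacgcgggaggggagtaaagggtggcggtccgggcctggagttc
MVD: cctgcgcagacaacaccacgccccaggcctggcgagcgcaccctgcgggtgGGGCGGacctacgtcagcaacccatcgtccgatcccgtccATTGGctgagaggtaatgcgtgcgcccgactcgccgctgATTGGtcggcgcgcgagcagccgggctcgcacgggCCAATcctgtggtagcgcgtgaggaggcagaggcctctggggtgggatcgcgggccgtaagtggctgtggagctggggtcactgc
FDPS: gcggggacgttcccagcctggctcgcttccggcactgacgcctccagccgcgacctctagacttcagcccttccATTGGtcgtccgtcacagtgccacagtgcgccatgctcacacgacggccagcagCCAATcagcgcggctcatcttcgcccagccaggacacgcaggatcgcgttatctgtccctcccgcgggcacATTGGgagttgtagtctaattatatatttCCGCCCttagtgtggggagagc
SCD: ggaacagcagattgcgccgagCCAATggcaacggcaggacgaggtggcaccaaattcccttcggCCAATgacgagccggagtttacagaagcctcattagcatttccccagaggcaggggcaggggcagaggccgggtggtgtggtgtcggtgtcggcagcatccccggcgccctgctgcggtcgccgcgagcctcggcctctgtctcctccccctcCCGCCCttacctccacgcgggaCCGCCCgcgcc
TMEM97: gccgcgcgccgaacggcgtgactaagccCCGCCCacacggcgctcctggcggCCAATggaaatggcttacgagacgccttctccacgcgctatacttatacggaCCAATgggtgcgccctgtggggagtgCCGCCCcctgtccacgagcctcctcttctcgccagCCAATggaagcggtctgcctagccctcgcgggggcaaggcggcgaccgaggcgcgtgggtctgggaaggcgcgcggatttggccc
All 6 windows hold CCAAT, with 2 copies in SCD, 3 each in EBP, MVD, FDPS and TMEM97, and 5 in NSDHL, where 2 copies on opposite strands overlap as CCAATTGG. The 250 bases of all but NSDHL also hold GGGCGG. Over windows of 300 bases, from 250 before to 50 after the start, CCAAT occurred in 6 of 6 of these genes, in 46 of the 113 named members with a RefSeq window (40.7%) and in 34.7% of 22199 protein-coding windows. The letters TCACNCCAC, a form of the sterol response element searched after values had been seen, had no match in the 6. Other forms of the element were not searched, so this does not show that it is absent. A match describes these letters and not a bound site. The 6 genes were picked by hand from the 15 lipid genes of the set, for a known control that acts with NF-Y. Their share with CCAAT is therefore no independent result, and the share over all 15 was not counted.

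The 145 genes together took 0.8604, 0.8756 and 0.8811% of all counts in the 3 resting libraries and 0.8739, 0.8999 and 0.8796% in the 5 h libraries. In 12 h libraries 2 and 3 they took 1.6145 and 1.6440%, and slightly less in library 1. The means were 0.872 ± 0.0107% (SD, n = 3), 0.884 ± 0.0137% and 1.62 ± 0.0224%, which shows the rule's pattern as a sum and is no independent result. The median gene had a 5 h/resting ratio of 1.01 (lowest 0.804, highest at the upper limit), a 12 h/resting ratio of 1.89 (1.61 to 5.72) and a 12 h/5 h ratio of 1.79 (1.61 to 5.55), against medians of 1.05 for 5 h/resting and 1.03 for 12 h/5 h over all 8813 genes, whose log2 median for 12 h/resting is the 0.14 given above. With TMM factors the members' medians were 0.914, 1.66 and 1.74. The step at 12 h was usually moderate. It reached 2-fold against rest in 42 genes and 2.5-fold in 9, and stayed under 1.8-fold in 50. The 5 h mean lay below the resting mean in 66 genes and at or above it in 79.

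**Figure D1:**
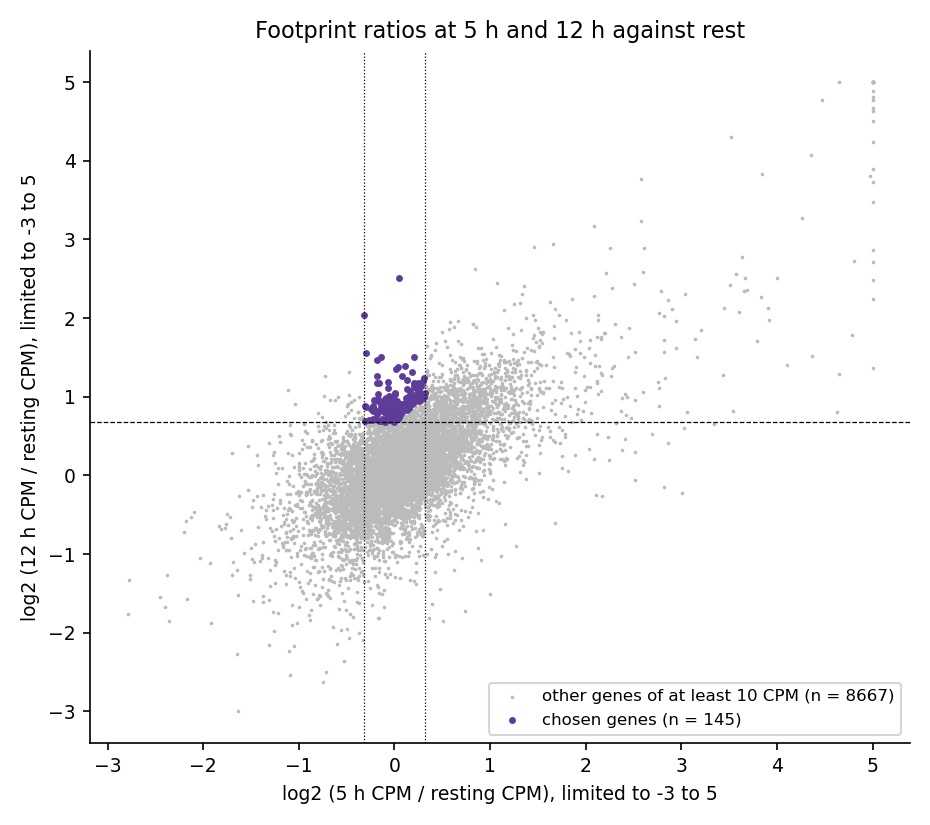
Each point is 1 gene of at least 10 CPM, with log2 of the 5 h/resting CPM ratio across and log2 of the 12 h/resting CPM ratio up, both limited to -3 to 5 (1 gene with no count at rest is not drawn). Dotted lines mark the 5 h/resting limits of 0.8 and its inverse and the dashed line the 12 h/resting limit of 1.6; the 145 chosen genes fill the band between the dotted lines above the dashed one, next to a broad diagonal of genes whose ratios at both times go together.

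All 145 genes had enough counts to enter an edgeR quasi-likelihood fit of the 9 libraries (13920 genes, Benjamini-Hochberg adjustment, call at an adjusted p under 0.05). It called 140 of them higher at 12 h than at rest, where 15.8% of all tested genes were called in that direction. At 12 h against 5 h it called 143 higher (11.6% of all tested), and at 5 h against rest it called 0 higher (16.0%) and 14 lower (18.4%). Of the 145, 0 were higher at 5 h at an unadjusted p under 0.05 by edgeR or DESeq2 either. The rule used these contrasts, so nothing is read from these counts. The median coefficient of variation over the members was 11.2% at rest, 11.4% at 5 h and 7.68% at 12 h. Over all genes of at least 10 CPM it was 10.3, 9.45 and 8.94%. In 140 of the 145, each 12 h library exceeded all 6 others, as it did in 17.8% of genes of at least 10 CPM. The 5 exceptions were MATR3, C11orf68, KIAA0319L, ENSG00000170153.11 and ENSG00000261221.4. The rule used the same CPM values, so this count and the coefficients of variation are descriptions and no independent result. Levels spanned 10.2 to 1568 CPM as the mean of 9 libraries, with a median of 36.7 CPM. A mean under 20 CPM was found in 38 genes and 100 CPM or more in 22.

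**Figure D2:**
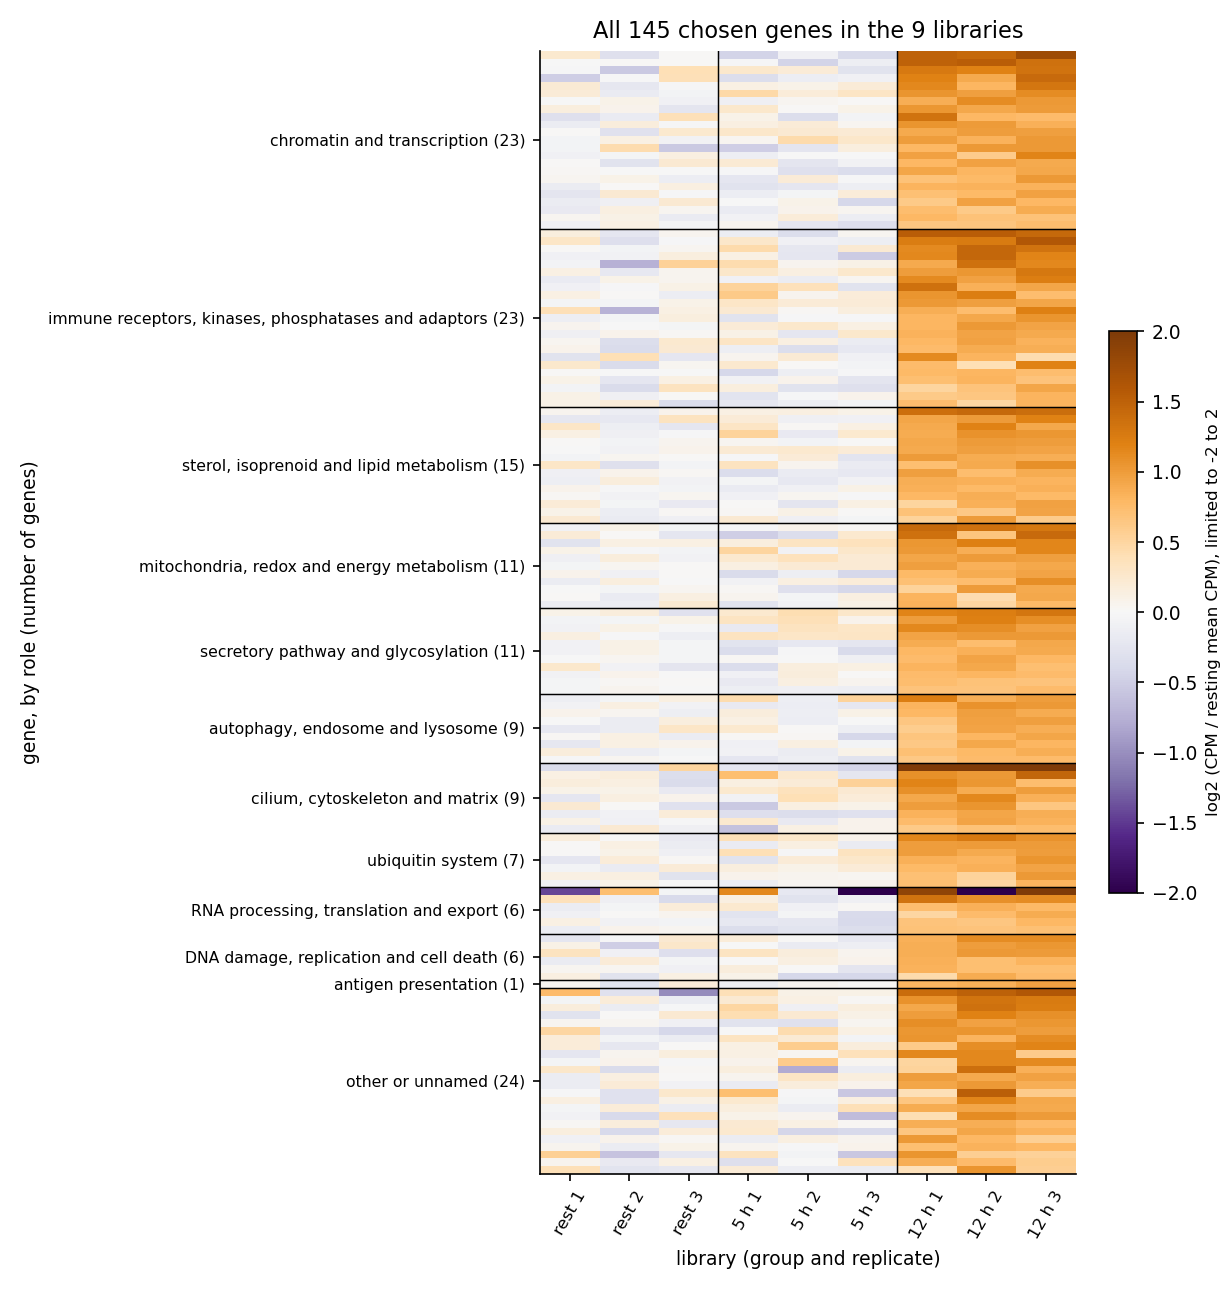
The colour gives log2 of each library's CPM over the gene's resting mean, limited to -2 to 2, for the 145 chosen genes (rows, grouped by role, each group ordered by 12 h/resting ratio) in the 9 libraries (columns). The 12 h columns are raised for nearly every row and the 5 h columns stay near the resting ones; the MATR3 row, first under RNA processing, alternates between libraries of 1 group.

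By role, 23 of the 145 were chromatin or transcription factors and 23 were immune receptors, kinases, phosphatases or adaptors. A further 15 acted in sterol, isoprenoid or lipid metabolism, 11 in the secretory pathway or glycosylation and 11 in mitochondria, redox or energy metabolism. Autophagy, endosome and lysosome proteins numbered 9, as did proteins of the cilium, cytoskeleton and matrix. The ubiquitin system had 7, RNA processing 6, DNA damage, replication and cell death 6, and antigen presentation 1. The remaining 24 were unnamed or left without a role. These groups were drawn up with the members known and carry no test. Their median 12 h/resting ratios lay between 1.69 and 1.96. With TMM factors the rule kept 11 of the 23 chromatin or transcription factors and 13 of the 23 receptors, kinases, phosphatases or adaptors. It kept 3 of the 11 secretory, 5 of the 11 mitochondrial, 4 of the 9 autophagy and 3 of the 9 cilium genes there. Of the ubiquitin system it kept 3 of 7, of RNA processing 2 of 6, and of DNA damage 3 of 6.

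The sterol group held a run of enzymes from acetyl-CoA to cholesterol. ACAT2 is the cytosolic enzyme that joins acetyl-CoA units at the head of the pathway. It stood at 286, 324 and 313 CPM at rest, 242, 276 and 270.1 CPM at 5 h, and 604, 517 and 569 CPM at 12 h. All 3 of its 12 h libraries exceeded the others, and its 5 h libraries were the lowest (ratios 0.854 at 5 h and 1.83 at 12 h against rest). MVD, which makes isopentenyl diphosphate from mevalonate diphosphate, stood at 32.7, 24.6 and 22.8 CPM at rest, 33.0, 27.2 and 29.1 CPM at 5 h, and 49.8, 61.0 and 50.1 CPM at 12 h. Rest and 5 h overlapped, and 12 h lay above both (12 h/resting 2.01). FDPS condenses those units to farnesyl diphosphate, the branch point to sterols, ubiquinone and protein prenylation. It was among the most abundant members at 538, 518 and 557 CPM at rest and 552, 519 and 539 CPM at 5 h, and stood at 1012, 1079 and 1069 CPM at 12 h. Its 5 h/resting ratio was 0.997 and its 12 h/resting ratio 1.96, with no overlap of 12 h with the other libraries.

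Later enzymes of the chain in the set were also highest at 12 h. NSDHL, which removes the C4 methyl groups of the sterol nucleus, had 27.4, 23.3 and 21.3 CPM at rest, 24.0, 20.2 and 26.1 CPM at 5 h, and 34.2, 43.1 and 46.7 CPM at 12 h (12 h/resting 1.72). EBP, the sterol isomerase that moves the ring double bond, had the largest 12 h/resting ratio of the sterol genes in the set. It stood at 123, 109 and 125 CPM at rest, 129, 131 and 127 CPM at 5 h, and 308, 319.6 and 310.2 CPM at 12 h, a 12 h/resting ratio of 2.63 with libraries of each time within a narrow range. 

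Neighbouring lipid genes belonged to the set as well. SCD, the stearoyl-CoA desaturase, stood at 479, 446 and 485 CPM at rest, 443, 481 and 461 CPM at 5 h, and 811, 857 and 805 CPM at 12 h (12 h/resting 1.75). Rest and 5 h overlapped fully. TMEM97 averaged 82.0 ± 8.49 CPM at rest, 76.7 ± 4.21 CPM at 5 h and 148 ± 2.05 CPM at 12 h (SD, n = 3 each). PDSS2, a subunit of the enzyme that builds the ubiquinone side chain from the same isoprenoid units, averaged 12.6 ± 1.17 CPM at 5 h and 23.2 ± 0.717 CPM at 12 h, 1.78 times its resting level. PEMT, which methylates phosphatidylethanolamine to phosphatidylcholine, averaged 25.3 ± 1.97, 29.4 ± 6.95 and 50.6 ± 3.47 CPM. ABHD4, HACD4, PLA2G6, RDH11 and AMACR complete the 15 lipid genes, whose 12 h/resting ratios ran from 1.65 to 2.63 with a median of 1.88. With TMM factors 8 of the 15 lipid genes met the rule, EBP, MVD and FDPS among them. NSDHL, SCD and TMEM97 missed it there with 12 h/resting ratios of 1.51, 1.54 and 1.58, and ACAT2 with a 5 h/resting ratio of 0.773.

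The other genes of the sterol pathway were tested. Of the 24 genes on a list of cholesterol synthesis and uptake, 5 were members, MVD, FDPS, NSDHL and EBP among them, and the other 19 were all tested. At 5 h against rest 13 of the 19 rose and 2 fell (edgeR adjusted p under 0.05). At 12 h against rest 15 rose and 1 fell, and at 12 h against 5 h 13 rose and 1 fell. Their median log2 change was 0.47 at 5 h and 1.18 at 12 h against rest, where all 13920 tested genes had medians of 0.07 and 0.04, and 0.48 from 5 h to 12 h, where all had -0.05. A list gene with a 12 h rise that stayed within the 5 h band would be a member, so the counts outside the set follow in part from the rule and are no independent result; the same holds for the lists below. HMGCS1, which starts the mevalonate branch, averaged 309.5 ± 17.5 CPM at rest, 778 ± 30.1 CPM at 5 h and 1529 ± 92.0 CPM at 12 h, a log2 rise of 0.93 ± 0.08 (SE) from 5 h to 12 h (adjusted p = 2.5e-09, edgeR).

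FDFT1, the squalene synthase that acts just after FDPS, had another course. It fell from 780.3 ± 30.5 CPM at rest to 603 ± 19.4 CPM at 5 h (log2 change -0.52, adjusted p = 2.17e-06, edgeR) and rose to 1551 ± 10.4 CPM at 12 h (log2 1.32 ± 0.07 against 5 h, adjusted p = 1.36e-12). Its 5 h/resting ratio of 0.773 put it just outside the band. SQLE and SC5D, 2 further enzymes of the chain, missed the band on the other side with 5 h/resting ratios of 1.32 and 1.27. Their 12 h/resting ratios of 2.44 and 2.54 were close to that of EBP, so the border between these enzymes and the 5 members is set by the upper limit of the band. INSIG1 and STARD4, a regulator of sterol sensing and a sterol carrier, had their highest mean at 5 h. STARD4 averaged 33.3 CPM at rest, 234 CPM at 5 h and 98.5 CPM at 12 h. LSS was the 1 list gene that fell at 12 h against rest (50.7 ± 8.78 to 36.9 ± 4.94 CPM), while PMVK and TM7SF2 missed the threshold in all 3 comparisons. SQLE, SC5D, INSIG1, STARD4, LSS, PMVK and TM7SF2 were named after their values were seen.

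**Figure D3:**
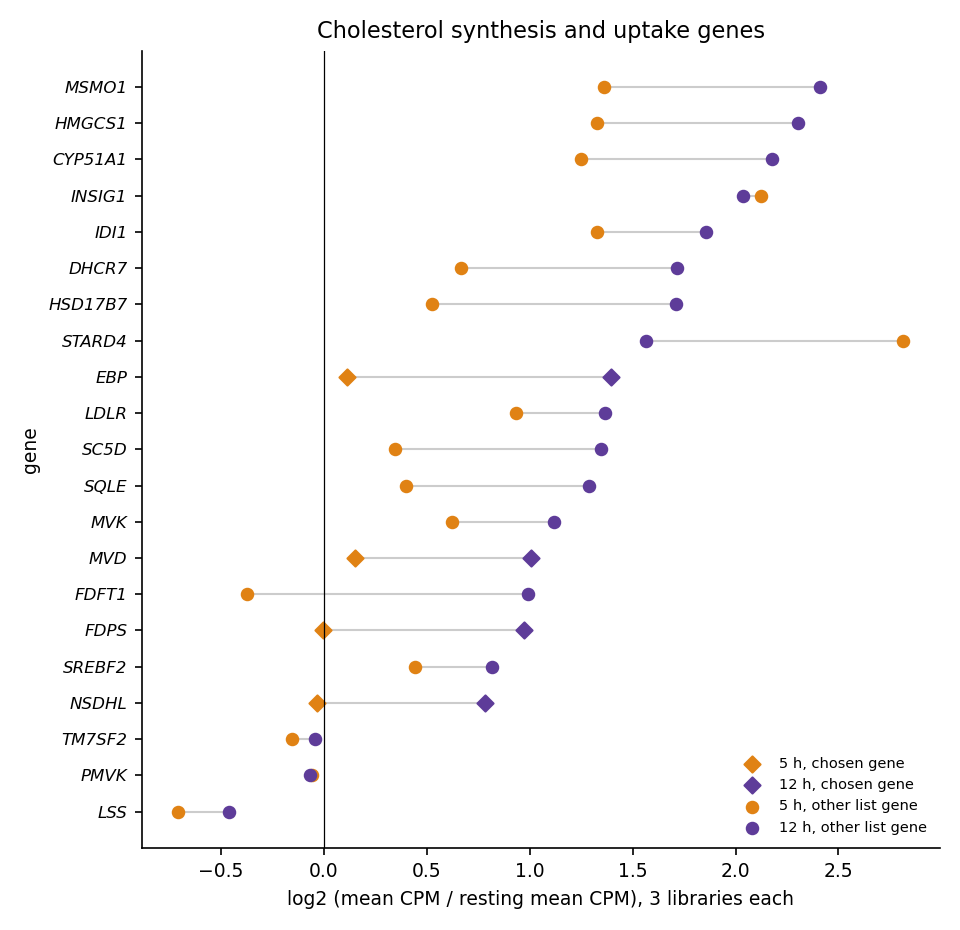
For 21 genes of cholesterol synthesis and uptake, points give log2 of the mean CPM at 5 h (orange) and 12 h (purple) over the resting mean CPM, 3 libraries each. Diamonds mark 4 chosen genes, which sit near 0 at 5 h, while most circles, the other list genes, are already to the right of 0 at 5 h.

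TAP2, a subunit of the transporter that carries peptides into the endoplasmic reticulum for MHC class I, was the 1 antigen presentation gene of the set. It stood at 71.0, 57.9 and 78.5 CPM at rest, 63.5, 71.9 and 70.5 CPM at 5 h, and 121, 125 and 134 CPM at 12 h. The resting and 5 h libraries overlapped and the 12 h libraries lay above them (12 h/resting 1.83). Of the other 18 listed antigen presentation genes, 8 rose and 5 fell at 5 h, 10 rose and 3 fell at 12 h against rest, and 9 rose and 0 fell from 5 h to 12 h by edgeR (median log2 change 0.31, against -0.05 over all tested genes). The count of falls was 0 by DESeq2 and at an unadjusted p under 0.05 too. TAP1, the partner of TAP2 in the transporter, rose earlier: it averaged 55.0 ± 2.97 CPM at rest, 97.4 ± 1.30 CPM at 5 h and 208 ± 24.9 CPM at 12 h (log2 1.05 ± 0.10 from 5 h to 12 h, adjusted p = 4.42e-08, edgeR). NLRC5, the transcriptional coactivator of MHC class I genes, averaged 19.6 ± 5.39, 27.6 ± 1.76 and 69.5 ± 6.11 CPM (log2 1.28 ± 0.16, adjusted p = 1.39e-06, edgeR). ERAP2, a peptidase that trims class I peptides, fell at 5 h and returned, with 185 ± 15.7, 115 ± 3.66 and 206 ± 8.06 CPM (log2 0.79 ± 0.09 from 5 h to 12 h, adjusted p = 9.11e-07, edgeR). UBE2L6, the conjugating enzyme for the interferon-induced modifier ISG15, and IRF2, an interferon regulatory factor, belonged to the set too. UBE2L6 averaged 105 ± 13.9, 116 ± 4.13 and 189.9 ± 10.4 CPM. IRF2 averaged 42.7 ± 2.44, 42.2 ± 2.03 and 85.7 ± 7.41 CPM. None of the genes on the interferon-stimulated list was a member.

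Among the 23 receptors, kinases, phosphatases and adaptors, 4 were in the 12 members with the largest 12 h/resting ratios. P2RX5, an ATP-gated ion channel, stood at 37.0, 28.5 and 34.9 CPM at rest, 30.6, 26.5 and 34.4 CPM at 5 h, and 97.0, 97.4 and 90.4 CPM at 12 h (12 h/resting 2.83), with a wide gap between 12 h and the rest. MAP3K3, a kinase upstream of MAP kinase and NF-kappaB pathways, stood at 14.1, 9.24 and 11.3 CPM at rest, 14.0, 10.9 and 10.6 CPM at 5 h, and 27.3, 27.6 and 34.9 CPM at 12 h (2.59). PTK2B (Pyk2), a focal adhesion kinase family member activated by calcium and receptor signals, stood at 43.0, 41.0 and 43.7 CPM at rest, 58.0, 36.6 and 49.9 CPM at 5 h, and 93.3, 116 and 107 CPM at 12 h (2.48). Its 5 h libraries spread on both sides of the resting ones. INPP5D encodes SHIP1, the phosphatase that Jurkat cells are known to lack as a protein; its footprints were 11.4, 11.5 and 13.3 CPM at rest, 13.1, 10.3 and 8.43 CPM at 5 h, and 26.7, 32.7 and 27.4 CPM at 12 h (2.40). With TMM factors INPP5D missed the rule with a 5 h/resting ratio of 0.794. Footprints count ribosomes on the mRNA and say nothing of a stable product.

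ITGA5, the alpha chain of the fibronectin receptor, stood at 45.5, 45.5 and 49.7 CPM at rest, 57.1, 53.7 and 54.0 CPM at 5 h, and 95.4, 92.3 and 89.3 CPM at 12 h. All 5 h libraries lay a little above rest (ratio 1.17) and all 12 h libraries well above both (1.97). Other members of this group act close to the T cell receptor. SKAP1, an adaptor that links the receptor to integrin adhesion, averaged 20.3 ± 0.0857, 17.9 ± 2.45 and 34.7 ± 0.733 CPM. DEF6, a guanine nucleotide exchange factor in T cells, averaged 83.6 ± 17.0, 72.0 ± 5.68 and 149 ± 6.81 CPM. CD58, the ligand of CD2, averaged 33.0 ± 8.96, 34.6 ± 3.44 and 58.4 ± 14.0 CPM, and its 12 h libraries ranged from 44.6 to 72.6 CPM, the lowest of them close to the highest resting library (43.4 CPM). WASL and its partner WIPF1, which drive branched actin assembly, had 12 h/resting ratios of 2.08 and 2.03. PPP3CC, a catalytic subunit of calcineurin, had 1.62, and TNIP1, an inhibitor of NF-kappaB signalling, 1.77.

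Of the 29 other genes on the list of integrins, adhesion and actin, 7 rose and 8 fell at 5 h, 8 rose and 11 fell at 12 h against rest, and 7 rose and 5 fell from 5 h to 12 h. Their median log2 change in the last comparison was 0.04, against -0.05 over all tested genes. Of all tested genes, 16.0% rose and 18.4% fell at 5 h, and 15.8% rose and 19.3% fell at 12 h against rest. The 11 falls at 12 h against rest became 4 without 12 h library 1, 6 without resting library 3, and 7 without resting library 1 or without 12 h library 3, so the balance of rises and falls rests on single libraries. The 5 falls from 5 h to 12 h became 2 without 5 h library 3. ITGAL, the alpha chain of LFA-1, averaged 123 ± 6.36, 108 ± 7.92 and 176 ± 8.47 CPM (log2 0.66 ± 0.09 from 5 h to 12 h, adjusted p = 1.06e-05, edgeR). SELPLG, the P-selectin ligand, fell from 140.1 ± 15.2 CPM to 25.6 ± 4.03 CPM at 5 h and rose to 48.1 ± 8.39 CPM at 12 h (0.88 ± 0.14, adjusted p = 3.92e-05, edgeR). ITGA4 went the other way, with 870.4 ± 75.8, 628 ± 35.8 and 455 ± 17.2 CPM (-0.51 ± 0.08, adjusted p = 6.26e-05, edgeR).

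Chromatin and transcription factors made up 23 members. PBXIP1, which binds PBX homeodomain proteins, had the largest ratio among them: 22.7, 15.4 and 19.2 CPM at rest, 14.1, 18.0 and 14.6 CPM at 5 h, and 53.6, 51.3 and 64.4 CPM at 12 h (12 h/resting 2.95). AFF3, a scaffold of the super elongation complex family, stood at 25.5, 25.8 and 25.8 CPM at rest, 25.3, 18.9 and 23.6 CPM at 5 h, and 72.5, 75.1 and 65.8 CPM at 12 h (2.77). Its resting libraries were nearly equal, and its lowest 12 h library lay far above the highest of the others. With TMM factors PBXIP1 and AFF3 missed the rule, with 5 h/resting ratios of 0.738 and 0.796. BCORL1, a corepressor related to BCOR, stood at 9.96, 6.98 and 13.4 CPM at rest, 12.1, 11.6 and 8.32 CPM at 5 h, and 24.6, 23.0 and 25.6 CPM at 12 h (2.41). BMAL1 and RORA, a core clock factor and a nuclear receptor that activates it, averaged 16.6 ± 4.34, 15.6 ± 2.27 and 32.9 ± 7.97 CPM and 11.8 ± 0.982, 11.4 ± 0.511 and 22.5 ± 4.39 CPM. Their 12 h libraries varied more than most, from 28.1 to 42.1 CPM for BMAL1.

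All 3 genes named for the male-specific lethal complex, which acetylates histone H4 at lysine 16, were members; they were picked out after their values were seen. MSL1, the scaffold, stood at 26.2, 20.4 and 21.9 CPM at rest, 31.4, 25.9 and 28.0 CPM at 5 h, and 47.2, 44.9 and 49.7 CPM at 12 h (12 h/resting 2.07), with a 5 h/resting ratio at the upper limit. MSL2, its ubiquitin ligase, stood at 94.4, 106 and 93.2 CPM, then 100.3, 133 and 119 CPM, then 195, 175 and 198 CPM (1.93). MSL3, the chromodomain subunit, stood at 54.4, 56.6 and 47.3 CPM, then 50.4, 59.6 and 48.4 CPM, then 91.0, 85.2 and 85.3 CPM (1.65). In each of the 3 the 12 h libraries lay above all others. The acetyltransferase of the complex, KAT8, averaged 65.9 ± 13.7 CPM at rest, 66.0 ± 3.58 CPM at 5 h and 88.7 ± 4.67 CPM at 12 h, a ratio of 1.35 that kept it outside the set. With TMM factors MSL1 stayed within the rule, while MSL2 missed it with a 12 h/5 h ratio of 1.56 and MSL3 with a 12 h/resting ratio of 1.45. None of the 3 MSL genes was kept in every run that left out 1 library.

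The secretory pathway gave 11 members, 2 of them among the most abundant. STT3B, a catalytic subunit of the oligosaccharyltransferase that attaches N-glycans, stood at 629.7, 693 and 660.1 CPM at rest, 626, 743 and 667 CPM at 5 h, and 1116, 1158 and 1115 CPM at 12 h (12 h/resting 1.71). LMAN1, the cargo receptor for glycoproteins leaving the endoplasmic reticulum, stood at 207, 217 and 215 CPM at rest, 187, 232 and 220.4 CPM at 5 h, and 354, 345 and 340.1 CPM at 12 h (1.63). Resting and 5 h libraries overlapped in both, and the 12 h libraries stood apart. NGLY1, which strips N-glycans from misfolded proteins, averaged 83.9 ± 2.71, 77.6 ± 0.384 and 137 ± 3.81 CPM. ST6GAL1, which caps N-glycans with sialic acid, averaged 55.0 ± 3.41, 47.1 ± 0.956 and 99.4 ± 6.04 CPM. UBAC2, an endoplasmic reticulum protein, had the highest ratio of the group (2.35). On the separate list of endoplasmic reticulum chaperones and secretion no gene was a member.

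PRDX1, an abundant peroxiredoxin that reduces hydrogen peroxide, had the highest level of all members. It stood at 1144, 1199 and 1173 CPM at rest, 1284, 1354 and 1358 CPM at 5 h, and 2297, 2105 and 2199.8 CPM at 12 h. Each 5 h library exceeded each resting one (ratio 1.14), and the 12 h/resting ratio was 1.88. SDHAF4, an assembly factor of respiratory complex II, stood at 24.7, 27.5 and 25.2 CPM at rest, 25.3, 27.1 and 26.1 CPM at 5 h, and 69.6, 65.8 and 62.8 CPM at 12 h (2.56). The resting and 5 h values were interleaved. No gene on the list of oxidative phosphorylation subunits was a member. ALDOC, the aldolase isoform typical of brain, was the 1 glycolytic member: 34.4, 30.8 and 32.7 CPM at rest, 25.4, 29.9 and 24.5 CPM at 5 h, and 55.6, 59.9 and 63.1 CPM at 12 h (1.82). Its 5 h libraries all lay below rest, and with TMM factors ALDOC missed the rule with a 5 h/resting ratio of 0.738.

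Of the other 20 genes on the glycolysis list, 2 rose and 11 fell at 5 h, 2 rose and 11 fell at 12 h against rest, and 6 rose and 3 fell from 5 h to 12 h. Their median log2 changes in these comparisons were -0.29, -0.33 and 0.11, against 0.07, 0.04 and -0.05 over all tested genes. PFKP, a phosphofructokinase isoform, averaged 232 ± 21.7, 260.4 ± 16.0 and 162 ± 5.89 CPM (log2 -0.73 ± 0.09 from 5 h to 12 h, adjusted p = 1.17e-06, edgeR). ENO1, the main enolase, averaged 1813 ± 110.4, 1342 ± 11.5 and 1912 ± 6.34 CPM (0.47 ± 0.06, adjusted p = 1.78e-06, edgeR). SLC2A1, the basal glucose transporter, fell from 59.5 ± 10.1 CPM to 11.4 ± 1.31 CPM and regained 24.7 ± 1.79 CPM (1.05 ± 0.16, adjusted p = 2.41e-05, edgeR).

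Autophagy, endosome and lysosome proteins were represented by 9 members. ATG9A, the lipid scramblase that seeds autophagosomes, stood at 28.4, 25.7 and 31.6 CPM at rest, 30.9, 26.0 and 28.3 CPM at 5 h, and 44.9, 55.7 and 56.4 CPM at 12 h (12 h/resting 1.83). UVRAG, a partner of the Beclin 1 lipid kinase complex, averaged 35.9 ± 2.92, 31.8 ± 0.873 and 70.3 ± 6.14 CPM. NBR1, a selective autophagy receptor, averaged 64.1 ± 4.17, 66.6 ± 6.56 and 118 ± 7.45 CPM. PIKFYVE, the kinase that makes the endolysosomal lipid PI(3,5)P2, averaged 124 ± 2.80, 108 ± 6.04 and 204 ± 9.94 CPM. Of 26 tested list genes outside the set, 5 rose and 6 fell at 5 h, 7 rose and 8 fell at 12 h against rest, and 3 rose and 3 fell from 5 h to 12 h. Of all tested genes, 11.6% rose and 13.5% fell from 5 h to 12 h. The median log2 change there was -0.08 for the 26 and -0.05 for all tested genes. The list's falls at 5 h numbered 3 without 5 h library 2. The falls from 5 h to 12 h numbered 1 without 12 h library 1 and, by edgeR, 0 without 5 h library 3 (4 at an unadjusted p under 0.05, and 3 by DESeq2 with all libraries). The 3 that rose in the last comparison were GABARAPL1, an ATG8 family protein (11.7 ± 0.450, 8.39 ± 1.31 and 29.1 ± 5.17 CPM, log2 1.74 ± 0.20, adjusted p = 4.8e-07, edgeR), the lysosomal sterol carrier NPC2 (57.7 ± 2.94, 58.7 ± 0.998 and 86.6 ± 3.59 CPM, 0.51 ± 0.11, adjusted p = 0.000932) and the phosphoinositide-binding WIPI1 (1.86 ± 0.196, 2.45 ± 0.307 and 7.92 ± 0.916 CPM, 1.64 ± 0.39, adjusted p = 0.00257).

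DNA damage, replication and cell death proteins numbered 6. CDT1, which loads the MCM helicase at replication origins, stood at 109, 82.2 and 108 CPM at rest, 105, 74.8 and 74.6 CPM at 5 h, and 136, 183 and 167 CPM at 12 h. Its libraries spread within each time, and 12 h still lay above all others (12 h/resting 1.63). With TMM factors CDT1 missed the rule, with a 5 h/resting ratio of 0.773 and a 12 h/resting ratio of 1.43. ATM, the kinase that answers DNA double strand breaks, averaged 68.8 ± 3.56, 68.1 ± 9.61 and 117 ± 5.12 CPM. BAK1, which permeabilises the outer mitochondrial membrane, averaged 18.0 ± 4.69, 16.8 ± 0.967 and 35.3 ± 2.12 CPM. The other 26 genes on the list of DNA replication and the G1/S transition fell more often than they rose against rest: 3 rose and 13 fell at 5 h, and 2 rose and 14 fell at 12 h. From 5 h to 12 h 4 rose and 7 fell, which became 5 and 4 without 5 h library 3 and 6 and 7 by DESeq2. The median log2 changes of the 26 were -0.28 at 5 h and -0.32 at 12 h against rest, and 0.00 from 5 h to 12 h. All tested genes had medians of 0.07, 0.04 and -0.05. CDC45, a helicase subunit, averaged 146 ± 4.57, 157 ± 3.91 and 88.9 ± 5.59 CPM (log2 -0.87 ± 0.09 from 5 h to 12 h, adjusted p = 2.17e-07, edgeR). The cell cycle inhibitor CDKN1A averaged 0.269 ± 0.109, 18.7 ± 4.25 and 3.30 ± 0.466 CPM (-2.56 ± 0.29, adjusted p = 4.52e-07, edgeR), and TYMS, the thymidylate synthase, 1229 ± 28.3, 1573 ± 20.5 and 1139.8 ± 22.3 CPM (-0.51 ± 0.06, adjusted p = 1.36e-06, edgeR).

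GPC3, a cell surface heparan sulfate proteoglycan, had the second largest ratio of the set. It stood at 5.74, 5.90 and 10.5 CPM at rest, 6.32, 5.99 and 5.51 CPM at 5 h, and 29.5, 29.5 and 32.6 CPM at 12 h (12 h/resting 4.13 and 12 h/5 h 5.14). Its 5 h/resting ratio of 0.804 lay at the lower limit of the band, and with TMM factors GPC3 missed the rule at 0.731. PGPEP1, a peptidase that removes N-terminal pyroglutamate, stood at 10.5, 5.11 and 3.05 CPM at rest, 8.11, 6.68 and 6.70 CPM at 5 h, and 16.4, 17.7 and 18.9 CPM at 12 h (2.84). Its resting libraries differed more than 3-fold among themselves, and without resting library 1 its log2 12 h/resting ratio went from 1.51 to 2.11. The remaining resting libraries, at 5.11 and 3.05 CPM, lay below every 5 h library. PGPEP1 was not kept in every run that left out 1 library. GPC3 and PGPEP1 reached the minimum mean of 10 CPM only through the 12 h libraries. GPC3 averaged 7.39 CPM at rest and 5.94 CPM at 5 h, and PGPEP1 6.22 and 7.16 CPM. UTRN, the dystrophin relative utrophin, averaged 57.1 ± 6.96, 46.0 ± 0.766 and 105 ± 3.37 CPM. Of the ubiquitin system, the ligase MKRN1 averaged 31.7 ± 3.77, 37.5 ± 4.01 and 71.2 ± 5.08 CPM, and the ligase adaptor KLHL24 averaged 51.7 ± 4.66, 49.6 ± 5.93 and 104 ± 0.736 CPM.

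**Figure D4:**
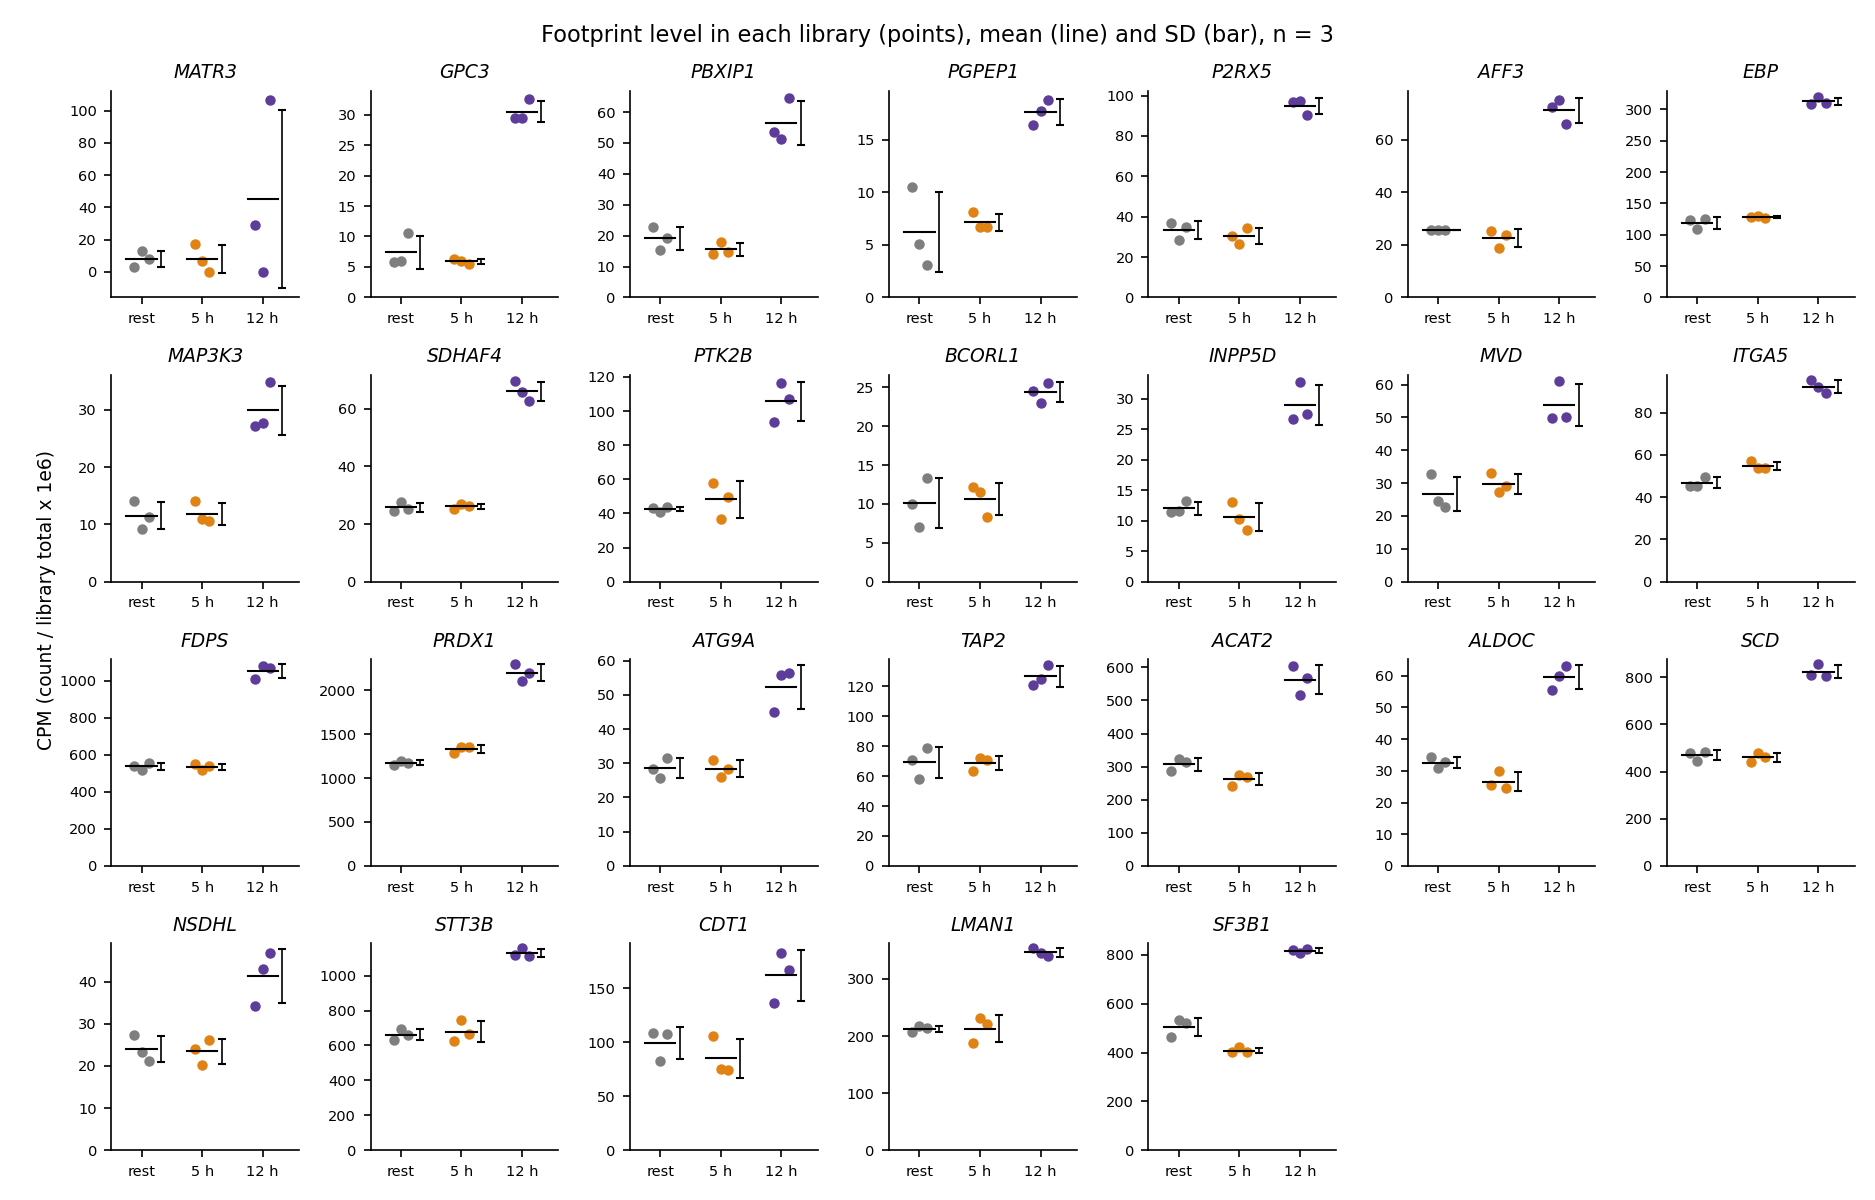
Panels show CPM per library (points), the mean (line) and SD (bar), n = 3, at rest, 5 h and 12 h for 26 members with the largest ratios, the highest levels or a place on a gene list. In 25 panels the 12 h points lie above all others; in the MATR3 panel they spread from 0 to 107 CPM.

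RNA processing gave 6 members. SF3B1, a core subunit of the splicing factor that recognises the branch point, stood at 464, 532 and 522 CPM at rest, 401, 421 and 401 CPM at 5 h, and 821, 807 and 824 CPM at 12 h. All 5 h libraries lay below rest (ratio 0.806, near the lower limit), and the 12 h/resting ratio was 1.62, below its 12 h/5 h ratio. With TMM factors SF3B1 missed the rule, with a 5 h/resting ratio of 0.729 and a 12 h/resting ratio of 1.42. MATR3, a nuclear matrix RNA-binding protein, headed the set by ratio (5.72), but that ratio rests on unequal libraries. The chosen identifier ENSG00000015479.20 had 27, 133 and 78 counts at rest, 166, 90 and 0 at 5 h, and 321, 0 and 747 at 12 h, so both stimulated times contained a library with no count. Without 12 h library 3 its log2 12 h/resting ratio went from 2.52 to 0.87, and its log2 12 h/5 h ratio from 2.47 to 0.82; without 5 h library 1 the latter was 3.71 and without 12 h library 2 it was 3.06. A second identifier for MATR3, ENSG00000280987.4, held far more footprints, from 417 to 635 CPM. Summed over both identifiers, MATR3 averaged 588 ± 54.7 CPM at rest, 567 ± 20.9 CPM at 5 h and 538 ± 20.8 CPM at 12 h, a 12 h/resting ratio of 0.914. The summed level was not higher at 12 h than at rest, and how footprints that match both identifiers were assigned is not stated in the labels.

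**Figure D5:**
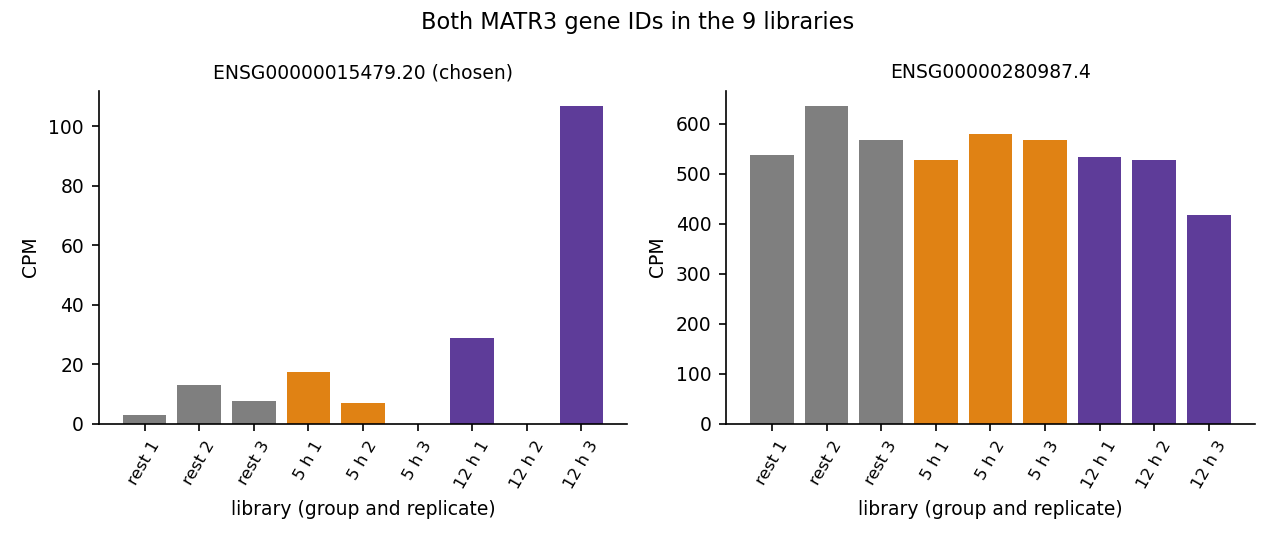
Bars give CPM in each of the 9 libraries for the 2 identifiers that carry the MATR3 name, on separate linear scales from 0. The chosen identifier (left) jumps between 0 and 107 CPM within the 12 h group, while the other (right) stays between 417 and 635 CPM throughout.

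The limit of 1.6 cut through a continuum. Just inside it stood PJA2, a ubiquitin ligase, at a 12 h/resting ratio of 1.608, MITD1 at 1.608 and the histone gene transcription factor HINFP at 1.612. Just outside, with every other criterion met, stood ENSG00000171681.12 at 1.599, ENSG00000041988.15 at 1.598 and ENSG00000256525.8 at 1.584. PJA2 had 84.2, 94.0 and 88.9 CPM at rest and 147, 126 and 157 CPM at 12 h, and ENSG00000171681.12 had 67.1, 77.4 and 73.6 CPM and 128, 104 and 117 CPM, so neighbours across the limit cannot be told apart.

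To read the ratios in libraries that had no part in the choice, the rule was applied to 6 libraries and the ratios were taken in the 3 set aside, 1 of each time. With the libraries numbered 1 set aside, 190 genes were chosen, and in those 3 libraries their median 12 h/resting ratio was 1.67 and their median 12 h/5 h ratio 1.55. The 12 h library exceeded both others in 171 of them (90.0%, against 38.7% of all genes of at least 10 CPM). With number 2 set aside, 162 genes had medians of 1.79 and 1.70, and 155 (95.7% against 41.6%) were highest at 12 h. With number 3 set aside, 153 genes had medians of 1.83 and 1.76, and 151 (98.7% against 40.5%) were highest at 12 h. Both 12 h ratios reached 1.6 again in 66, 80 and 87 genes (34.7, 49.4 and 56.9%, against 3.22, 4.82 and 4.60% of all genes). The 12 h library was therefore highest again in most genes of each newly chosen set, with smaller ratios than those that chose them. The median 5 h/resting ratios in the libraries set aside were 1.06, 1.05 and 1.04. The share of genes that stayed within the 5 h band there was not counted. Of these 190, 162 and 153 genes, only 112, 109 and 105 were members of the set described above. The shares were not taken for those members alone, so they describe the rule and not that set. With 1 library of each time set aside, these ratios and shares are descriptions without a test. Numbers do not tie libraries together across times here.

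Other promoter motifs were counted in the members' windows and in all protein-coding windows. The NFAT core GGAAA occurred in 57.5% of the 113 windows and 59.4% of all, the AP-1 site TGAGTCA in 2.65 and 4.01%, the E-box CACGTG in 7.96 and 8.34%, and the ETS motif CCGGAAG in 11.5 and 12.8%. The CRE TGACGTCA occurred in 0.885 and 2.26%, the CHR motif TTTGAA in 11.5 and 12.4%, the E2F motifs TTTCCCGC or TTTGGCGC in 2.65 and 2.79%, and the ISRE in 2.65 and 3.17%. The largest gap was that of the Sp1 motif GGGCGG, in 79.6% of members and 56.3% of all, and TATAAA was found in 5.31 and 9.47%. TCACNCCAC occurred in 2.65 and 1.13%, or 3 of the 113. Both strands were searched, matches of CCAAT and GGGCGG on opposite strands can share bases, TTTCCCGC holds the NFAT core on the opposite strand, and all shares are descriptions. The all-gene windows include genes without footprints in Jurkat cells, so a share above theirs is not particular to the set. The named members lay on all chromosomes from 1 to 22 and X except 21, with 16 on chromosome 1 (11.5% of the named members, against 10.3% of protein-coding genes) and 7 on X (5.04 against 4.23%). Chromosomes 2, 6 and 7 held 13 each (9.35%, against 6.25, 5.23 and 4.68% of protein-coding genes).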

How the data were processed

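Ribosome footprints were counted in 9 Jurkat libraries, 3 each at rest and after 5 h and 12 h of stimulation. The deposited count table holds whole-number counts per gene, not normalized, for 19569 identifiers; per the submitters' processing notes, cutadapt 3.2, Bowtie, bedtools, RSEM, DESeq2 and GRCh38.p13 were used, and the notes give no role for each. The authors' log2 table of 11572 identifiers equals log2 of the count over a size factor per library, plus 1, within 5.03e-09, and held 144 of the 145 genes; it served as a check. Ratios use CPM from column totals, as the selection rule asks. For genes outside the set, edgeR 4.0.16 (R 4.3.3) was run on the count table (TMM, filterByExpr, quasi-likelihood, 9 libraries in 1 fit, Benjamini-Hochberg); the code was tested on simulated counts. The edgeR log2 changes are on the TMM scale and the CPM means beside them on column totals. P-values measure the spread between libraries labelled as replicates, and where nothing says they came from separate cultures that spread may be technical.

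Genes named with all libraries were the 12 members with the largest 12 h/resting ratio, the 8 with the highest level and every member on one of 20 gene lists. From each list holding a member, the 3 other genes with the lowest adjusted p at 12 h against 5 h were named; genes described by mean alone, and others as stated, were picked after their values were seen. Some genes under these rules are not reported here. The members and lists were chosen with earlier results of these data known. The files pair no symbols with identifiers: names come from general knowledge of Ensembl identifiers and were not checked against a table. All 199 identifiers written down for list genes had to be in the count table for the lists to be read, which does not check the names. All 139 symbols matched RefSeq and 113 had a promoter window. A planned comparison of coding lengths was not run, and levels are not compared between genes per length. Same-numbered libraries did not deviate together (correlations -0.062 to 0.09), so numbers were not used as pairs. Alternatives changed the scaling, limits, filter, tool and libraries.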

Additional observations from a re-analysis of the deposited data

Results flagged for a closer look

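Some list genes outside the set differed between the 2 stimulated times, by the edgeR test of 12 h against 5 h itself. In cholesterol synthesis, the log2 change from 5 h to 12 h was 1.32 for FDFT1 and 0.93 for HMGCS1. In antigen presentation it was 1.05 for TAP1, 0.79 for ERAP2 and 1.28 for NLRC5. Among DNA replication and G1/S genes it was -0.87 for CDC45, -2.56 for CDKN1A and -0.51 for TYMS. In glycolysis it was -0.73 for PFKP, 0.47 for ENO1 and 1.05 for SLC2A1. Among integrin, adhesion and actin genes it was 0.66 for ITGAL, 0.88 for SELPLG and -0.51 for ITGA4. In lysosome and autophagy it was 1.74 for GABARAPL1, 0.51 for NPC2 and 1.64 for WIPI1. These genes were named for their low adjusted p in this comparison. Groups of 3 libraries are too small for a test of a single library against the others.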

How the results depend on the processing

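Membership depended on the scaling and the limits. The rule kept 145 genes with column totals, 93 with TMM factors (70 of the 145) and 105 with DESeq2 size factors (75 of the 145). Of the 145, 56 had a TMM 12 h/resting ratio under 1.6, 17 a TMM 12 h/5 h ratio under 1.6 and 19 a TMM 5 h/resting ratio under 0.8. Limits of 1.5 or 2 on both 12 h ratios kept 232 or 22 genes, and a 5 h/resting band of 0.9 to 1.1 kept 77. Leaving out 1 library at a time kept 141 to 160 genes, and 62 of the 145 were kept in all 9 such runs. Minimum levels of 5 or 20 CPM gave 177 and 107 genes, and medians in place of means 155. With TMM factors the set-aside libraries numbered 2 gave a median 12 h/resting ratio of 1.64 in place of 1.79.

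Against a 1.5-fold change (glmTreat), edgeR called 1098 genes at 5 h against rest, 1130 at 12 h against rest and 617 at 12 h against 5 h, in place of 4797, 4887 and 3497. Under it, 9 cholesterol genes outside the set were called at 12 h against 5 h in place of 14, 2 antigen presentation genes in place of 9, 2 DNA replication genes in place of 11, 1 glycolysis gene in place of 9 and 2 lysosome and autophagy genes in place of 6. Of the integrin, adhesion and actin genes 0 were called in place of 12 (1 at an unadjusted p under 0.05; DESeq2, without that limit, called 12). With the replicate block the calls were 4644, 4689 and 3373; the numbers share no stated batch, and the block moved no list count by over 1.5 times. How far depth limits the members was not tested: 38 lay under 20 CPM, and 13 had a 12 h SD over 20% of the mean, CD58 at a mean of 42.0 CPM among them.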
